A study of Rattus norvegicus with 20 samples.

Results

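Pdgfra, Olig1 and Bcas1 are genes of the oligodendrocyte lineage, and they were followed here in cultures that had been purified as rat subplate neurons. The set is named for the oligodendrocyte precursor cell, although Bcas1 marks a later stage, early myelin formation. The genes were selected as the probe sets whose symbol in the authors' annotated table of expressed genes is one of the 3 names. Each name had 1 probe set: 1370941_at for Pdgfra (Entrez gene 25267), 1387200_at for Olig1 (60394) and 1373098_at for Bcas1 (246755). These 3 probe sets stand among 17243 in the annotated table and 31042 tested on the array. The 3 genes were chosen by their coculture differences in these same arrays, so those differences are given below as a description, with no test, and support nothing by themselves.

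Oligodendrocyte precursor cells arise from neural progenitors, divide in response to platelet-derived growth factor and later give rise to the myelinating oligodendrocytes of the brain. Pdgfra encodes the receptor through which these cells respond to that growth factor. Olig1 encodes a basic helix-loop-helix transcription factor of the oligodendrocyte lineage, and Bcas1 encodes a protein that marks oligodendrocytes in the early phase of myelin formation and is present in myelin.

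Subplate neurons were taken from the posterior neocortex of rat embryos at embryonic day 17, captured on dishes bearing an antibody against p75, a neurotrophin receptor, and plated on coverslips in serum-free medium. The 20 arrays fall into 4 groups of 5 replicates that the labels call biological: cocultured at 24 h, control at 24 h, cocultured at 96 h and control at 96 h. Cocultured coverslips stood above a feeder layer of cortical cells from the same dissections, the cells that had not stuck to the antibody, and wax dots kept the 2 layers apart. Control coverslips had the same dots and medium in wells with no feeder cells. The study asked whether coculture changes transcription in subplate neurons, at an early time before most synapses form and at a later one. No transgene or treatment other than the feeder layer is named. Coverslips were generally pooled for a condition, and 100 ng of RNA went through 2 rounds of amplification before hybridisation. In RNA of whole coverslips, a different number of cells of a type and a different amount of RNA per cell cannot be told apart.

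A value of 1 in these data is the probe set's median over the 20 arrays, so values compare samples of 1 gene and never one gene with another. All 10 listed neuron markers were on the authors' expressed list. At 24 h 1 of them rose with coculture and 0 fell, where 2.78% of all named genes rose and 7.58% fell. In a fit that compares arrays of equal replicate number, the blocked fit, 2 rose and 3 fell at 24 h. At 96 h 1 rose and 2 fell in the reported fit, where 7.48% of all named genes rose and 41.1% fell. The blocked fit called far more of the 31042 probe sets: 8679 against 1026 at 24 h and 19239 against 9937 at 96 h. Its counts here and below therefore cannot be set against the shares of named genes, which are those of the reported fit. The 18 hybridisation control probe sets, for transcripts added to the labelled sample, differed between the groups too. Their mean log2 ratio was 0.32 ± 0.65 in the 24 h cocultures and -0.54 ± 0.67 in the 24 h controls, and 0.70 ± 0.64 in the 96 h cocultures and -0.63 ± 0.66 in the 96 h controls (SD, n = 5 each). Replicate 5 had the highest value in both cocultured groups, 1.36 at 24 h and 1.62 at 96 h. Adding these controls to the fit as a covariate changed several calls.

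The promoter of Pdgfra is shown because its product is the receptor that defines the precursor cell and because basic helix-loop-helix factors such as Olig1 bind the E-box, CANNTG. The RefSeq promoter table for the build GRCr8 matched 1 of the 3 genes, Pdgfra, at chr14:33408467-33408766 on the minus strand, which runs from 250 bases before to 50 bases after the start of transcription. Capitals mark the 1 E-box match, which begins at base 181 of the window. The motif reads the same on both strands.
Pdgfra promoter: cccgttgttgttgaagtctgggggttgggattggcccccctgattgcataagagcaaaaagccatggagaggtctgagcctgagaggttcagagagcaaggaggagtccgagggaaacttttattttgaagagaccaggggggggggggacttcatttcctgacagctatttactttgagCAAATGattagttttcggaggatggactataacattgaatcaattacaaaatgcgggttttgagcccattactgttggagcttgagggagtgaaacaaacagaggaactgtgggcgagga
Of the 33469 promoters of this length in the table, 72.1% hold at least 1 such match, with a median of 1, so the match is common and describes the sequence without naming a bound site.

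Pdgfra, the receptor, was far higher in cocultured than in control cultures at both times. At 24 h its ratios to the median were 2.31, 2.06, 1.77, 1.88 and 4.53 in cocultured replicates 1 to 5, against 0.134, 0.083, 0.174, 0.253 and 0.224 in control replicates 1 to 5. The lowest cocultured array therefore lay several-fold above the highest control array, and replicate 5 stood apart at the top. The mean log2 difference was 3.86 ± 0.33 (SE), a 14.6-fold difference that ranked 2 of 31042 probe sets by size among differences in that direction. At 96 h the ratios were 3.57, 1.83, 1.75, 2.40 and 4.58 in the cocultures, against 0.126, 0.157, 0.133, 0.0745 and 0.174 in the controls. Again the groups were well apart, with replicates 1 and 5 the highest cocultures. The difference was 4.36 ± 0.33, or 20.6-fold, and again ranked 2.

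Olig1, the transcription factor, had ratios of 2.00, 1.78, 1.66, 2.02 and 4.13 in the 24 h cocultures, against 0.128, 0.0979, 0.219, 0.336 and 0.199 in the 24 h controls. Its groups did not overlap, and replicate 5 was once more the highest coculture. The log2 difference was 3.61 ± 0.33, or 12.2-fold, at rank 4. At 96 h its ratios were 3.07, 1.95, 1.71, 2.15 and 2.70 in the cocultures, against 0.181, 0.238, 0.268, 0.0896 and 0.153 in the controls. The cocultures lay closer together than for Pdgfra, with replicate 1 the highest of the 96 h cocultures. The 96 h control replicate 4 was the lowest of all 20 arrays. The difference was 3.71 ± 0.33, or 13.0-fold, at rank 6.

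Bcas1, the gene of early myelinating cells, had ratios of 1.99, 1.59, 2.06, 1.95 and 3.71 in the 24 h cocultures, against 0.215, 0.204, 0.373, 0.361 and 0.412 in the 24 h controls. These groups were again separate. The log2 difference of 2.85 ± 0.35, or 7.20-fold, ranked 5. At 96 h its ratios were 5.25, 2.34, 1.98, 2.59 and 7.16 in the cocultures, against 0.291, 0.284, 0.333, 0.136 and 0.384 in the controls. For Bcas1, 96 h cocultured replicates 5 and 1 held the highest ratios of the 20 arrays, and replicate 3 was close to its 24 h value. The difference was 3.65 ± 0.35, or 12.6-fold, at rank 7.

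Matching arrays by replicate number gave the same picture in every pair. Pdgfra was 7.42-fold to 24.8-fold higher in the coculture at 24 h and 11.6-fold to 32.2-fold higher at 96 h. The range for Olig1 was 6.02-fold to 20.7-fold at 24 h and 6.39-fold to 24.0-fold at 96 h, and for Bcas1 it was 5.40-fold to 9.27-fold at 24 h and 5.95-fold to 19.0-fold at 96 h. In all 5 pairs, at both times and for each of the 3 genes, the cocultured array was the higher. All cocultured arrays lay above all control arrays for 3 of the 3 probe sets at each time. Over all probe sets, 1.62% were separated in this direction at 24 h and 6.04% at 96 h. Since the genes were chosen for this contrast, nothing is read from that count.

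When the fit carried the hybridisation control covariate, the Pdgfra difference was 3.38 at 24 h and 3.61 at 96 h, that of Olig1 was 3.42 at both times, and that of Bcas1 was 2.33 at 24 h and 2.85 at 96 h. The 2 coculture differences of a gene share no arrays, but arrays of equal replicate number are paired over the times, so they are not independent. As values, the 96 h difference exceeded the 24 h difference by 0.50 ± 0.47 for Pdgfra, 0.10 ± 0.46 for Olig1 and 0.80 ± 0.49 for Bcas1 (log2). These SEs are from the fit without that pairing. These second-order values are also a description, since both contrasts served in choosing the genes.

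**Figure D1:**
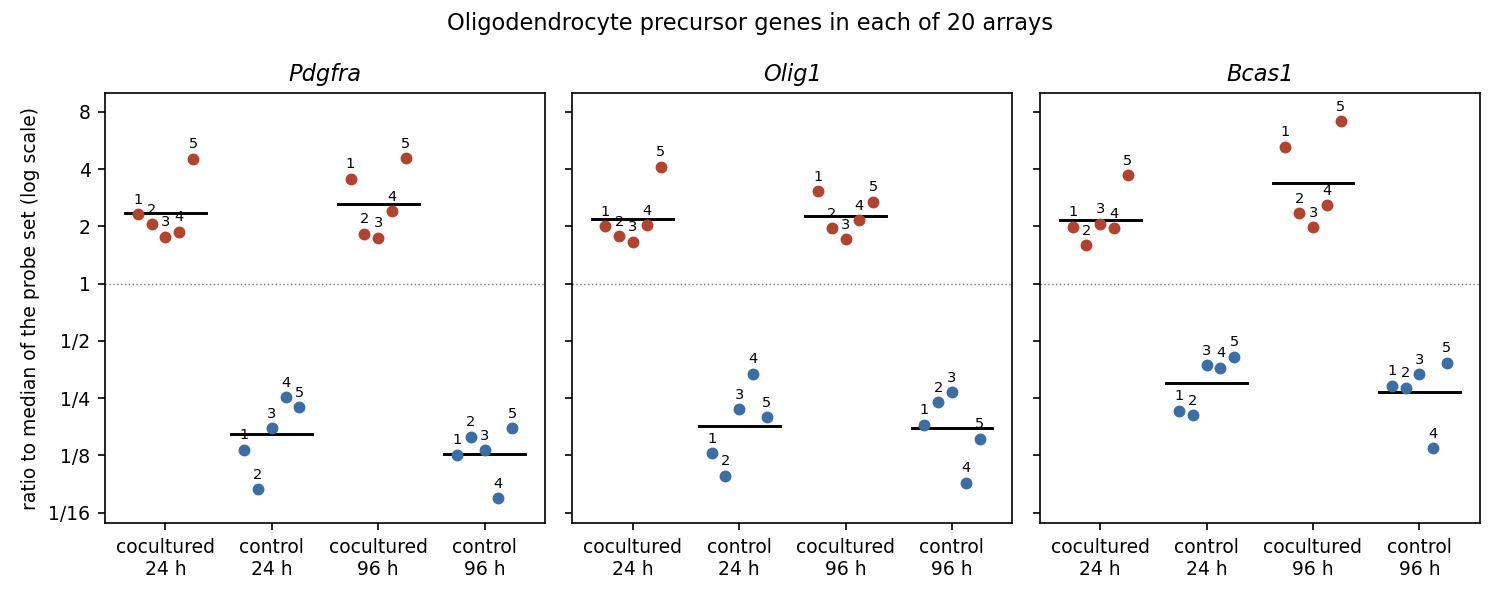
Ratio of each array to the probe set's median (log scale) for Pdgfra, Olig1 and Bcas1, with points numbered by replicate and a black bar at the geometric mean of each group of 5. Every cocultured point lies above every control point, and replicate 5 is the highest 24 h coculture for each gene.

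Within each gene the order of the groups by geometric mean was cocultured 96 h, cocultured 24 h, control 24 h and control 96 h. For Pdgfra these means were 2.63, 2.35, 0.161 and 0.128, for Olig1 2.27, 2.18, 0.179 and 0.174, and for Bcas1 3.39, 2.16, 0.300 and 0.270. The step between cocultures and controls is the descriptive one above. The steps between times within a condition were tested, because the genes were not chosen for them. Those tests still use the arrays that served in the choice, which was made with earlier results of these data known.

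Culture time alone did not change the 3 genes past the test. Relative to 24 h, the 96 h cocultures differed by 0.16 ± 0.33 in Pdgfra (log2, SE; 95% confidence interval -0.53 to 0.85; adjusted p = 0.859) and by 0.06 ± 0.33 in Olig1 (-0.62 to 0.74; adjusted p = 0.955). Bcas1 had the widest gap, 0.65 ± 0.35 (-0.07 to 1.37), with an unadjusted p of 0.0739 and an adjusted p of 0.479. The count of these 3 called was 0, where 0.999% of all probe sets were called. In the blocked fit, which compares arrays of equal replicate number, the Bcas1 change had an adjusted p of 0.0893. There 0 of the 3 were called too, where 4418 of 31042 probe sets were, so nothing is read from either count.

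In the pairs, Bcas1 was higher at 96 h than at 24 h in 4 of 5 cocultures, between 0.961-fold and 2.63-fold. Pdgfra was higher in 3 of 5 (0.889-fold to 1.54-fold) and Olig1 in 4 of 5 (0.656-fold to 1.53-fold). The time change of Bcas1 in cocultures exceeded that of Pdgfra by 0.49 ± 0.45 (SD over 5 pairs, higher in 4 of 5) and that of Olig1 by 0.60 ± 0.62 (higher in 4 of 5). Neither passed a two-sided exact sign-flip permutation test, with p = 0.125 for each of these 2 comparisons, where 0.0625 is the smallest p that 5 pairs allow.

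In the controls the 96 h minus 24 h differences were -0.34 ± 0.33 for Pdgfra (-1.03 to 0.35), -0.04 ± 0.33 for Olig1 (-0.72 to 0.64) and -0.15 ± 0.35 for Bcas1 (-0.87 to 0.57). The adjusted p of each rounded to 1, and 0.145% of all probe sets were called. By pair, Pdgfra was higher at 96 h in 1 of 5 controls, Olig1 in 3 of 5 and Bcas1 in 2 of 5, and control pair 4 had the lowest change for all 3 genes. The signs of the small changes are not firm. With the covariate the coculture time change was -0.050 for Pdgfra and -0.025 for Olig1.

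**Figure D2:**
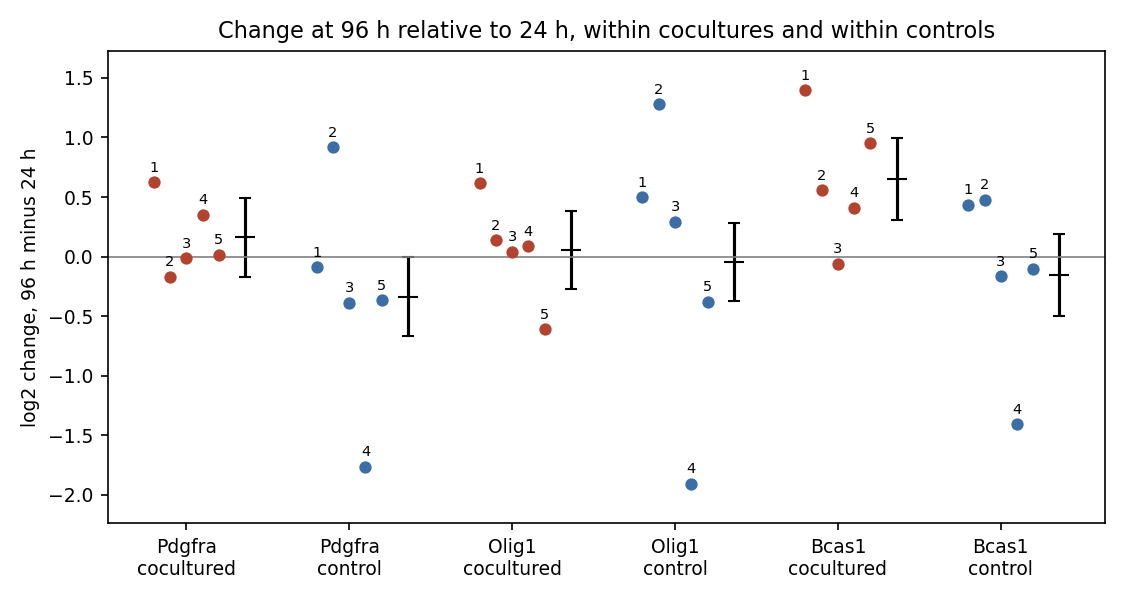
Log2 change at 96 h relative to 24 h for each pair of arrays with the same replicate number, in cocultures (left of each gene's 2 columns) and controls (right). Black marks show the fitted change ± SE, which is 0.65 ± 0.35 for Bcas1 in cocultures and spans or nearly spans 0 in the other columns.

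The 3 genes moved closely with each other over the 20 arrays. Pearson's r of log2 values was 0.989 between Pdgfra and Olig1, 0.984 between Pdgfra and Bcas1 and 0.972 between Olig1 and Bcas1. The 20 arrays fall into cocultured and control sets that these genes separate, and all genes share the arrays, so r is given as a description. Among 8381 named genes, the 5 most like Pdgfra were Olig1, Bcas1, Sox2 (0.984), Zfp36l1 (0.980) and Enpp2 (0.975). Those most like Olig1 were Pdgfra, Fabp7 (0.978), Bcas1, Sox2 (0.971) and Qki (0.967). Those most like Bcas1 were Pdgfra, Olig1, Sox2 (0.971), Tril (0.970) and Enpp2 (0.969). Sox2, a transcription factor of neural progenitors, is in all 3 sets. Fabp7, a fatty acid binding protein, is abundant in radial glia, and Enpp2 encodes autotaxin, which differentiating oligodendrocytes secrete.

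Among other genes known from oligodendrocyte precursors, 13 of 35 listed were among the named genes, and most of those that passed the test rose with coculture. At 24 h 7 rose and 0 fell (9 rose and 0 fell in the blocked fit; 2.78% of all named genes rose and 7.58% fell in the reported fit), and at 96 h 9 rose and 1 fell (7.48% rose and 41.1% fell). The median log2 difference of the list was 0.75 at 24 h, against -0.18 over all named genes, and 0.86 at 96 h, against -0.34. Array medians were not level, and after they were equalised the all-gene medians were 0.00 at 24 h and -0.02 at 96 h, while the list had 7 higher and 0 lower at 24 h and 10 higher and 0 lower at 96 h. With control replicate 1 or 3 left out 4 of the 13 were called at 24 h, and with control replicate 3 or cocultured replicate 5 left out 6 were called at 96 h. Named genes come from the authors' expressed list, of probe sets called present in 10 of 20 arrays. A gene could enter it through the arrays of 1 condition alone. How far that filter set the direction among the measured genes, in this list and those below, was not tested.

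Ptprz1, a receptor phosphatase of precursors and radial glia, rose by 1.73 ± 0.21 at 24 h (log2, SE; adjusted p = 2.83e-05) and by 2.68 ± 0.21 at 96 h (5.49e-08). Its mean log2 ratio was 0.62 ± 0.23 in the 24 h cocultures and -1.11 ± 0.55 in the 24 h controls, and 0.65 ± 0.14 in the 96 h cocultures and -2.02 ± 0.31 in the 96 h controls (SD, n = 5 each). The cocultures were thus level over time, while the controls were lower at 96 h than at 24 h by 0.91 ± 0.21, a change with an adjusted p of 0.0635 and, in the blocked fit, 0.000532. Ednrb, the endothelin B receptor, rose by 1.21 ± 0.21 at 24 h (adjusted p = 0.00107) and 1.91 ± 0.21 at 96 h (2.72e-06). Sox6, a transcription factor that keeps precursors from differentiating, rose by 1.28 ± 0.20 (0.000444) and by 1.05 ± 0.20 (0.000787) at those times.

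Zeb1, a zinc finger repressor, rose by 0.96 ± 0.20 at 24 h and 1.20 ± 0.20 at 96 h, with both of its probe sets called at each time. Bcan, which encodes the matrix proteoglycan brevican, rose by 0.85 ± 0.25 at 24 h (adjusted p = 0.0387; 0.153 with the covariate) and 1.49 ± 0.25 at 96 h (0.000278). Serpine2, a secreted protease inhibitor, rose by 0.75 ± 0.20 at 24 h (0.0251) and 0.52 ± 0.20 at 96 h (0.0413). Its 96 h call was lost with only the groups compared (adjusted p = 0.106) and without replicate number 5, where the difference was 0.31 (0.191).

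C1ql1, a secreted complement-like protein of precursors, rose at 96 h by 0.55 ± 0.21 (adjusted p = 0.0377; 0.937 with the covariate). Chst11, a chondroitin sulfotransferase, rose then by 0.95 ± 0.36 (0.0354), a difference that was -0.16 with the covariate. Vcan, the proteoglycan versican, fell by 0.53 ± 0.19 on the log2 scale at 96 h (0.0262), which became 0.036 with the covariate and -0.21 with equal array medians, and 1 of its 4 probe sets was called. Tnr, Epn2 and Pid1 did not pass at either time in the reported fit. In the blocked fit, Pid1 (0.47 ± 0.16) and Chst11 (0.76 ± 0.36) passed at 24 h, with adjusted p = 0.0120 for Pid1 and 0.000749 for Chst11. Over time within cocultures 1 of the 13 fell, Vcan, and 0 rose, where 1.37% of all named genes fell and 0.943% rose. The blocked fit had 4 higher and 2 lower. Within controls 0 rose and 0 fell, where 0.274% and 0.131% of all named genes did so, against 1 higher and 2 lower in the blocked fit. Olig2, Sox10, Cspg4, Nkx2-2 and Gpr17, also on the list, were not among the named genes and so were not analysed here.

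Among genes of differentiating oligodendrocytes and myelin, some rose and some fell with coculture. Of 36 listed, 14 were named. At 24 h 2 rose and 1 fell, where 2.78% of all named genes rose and 7.58% fell. At 96 h 4 rose and 5 fell, where 7.48% rose and 41.1% fell. The list medians were 0.02 at 24 h and -0.03 at 96 h, against -0.18 and -0.34 over all named genes. In the blocked fit 2 rose and 5 fell at 24 h, and with the covariate 3 rose and 0 fell at 96 h. Over time 0 were called in cocultures or controls, and in the blocked fit 2 rose and 2 fell within cocultures.

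Mbp, Mag and Mog, which encode proteins of mature myelin, were not called. Mbp, myelin basic protein, differed by 0.05 ± 0.16 at 24 h (adjusted p = 0.828) and -0.28 ± 0.16 at 96 h (0.137), with 0 of its 3 probe sets called. Mag and Mog, which encode glycoproteins of the myelin surface, differed by between 0.01 and 0.10 at both times. The Mog value is a mean of 2 probe sets of opposite sign, with 0 called. They were at -0.20 and 0.25 at 24 h and at -0.26 and 0.32 at 96 h.

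The members that rose were Enpp2, Cnp, Cldn11 and Tspan2. Enpp2 had a mean log2 ratio of 0.74 ± 0.43 in the 24 h cocultures and -0.95 ± 0.27 in the 24 h controls, and 0.98 ± 0.46 in the 96 h cocultures and -1.04 ± 0.08 in the 96 h controls. It rose by 1.69 ± 0.21 at 24 h (3.66e-05) and 2.01 ± 0.21 at 96 h (1.18e-06). Cnp, a phosphodiesterase found in the lineage before compact myelin forms, rose by 1.18 ± 0.22 at 24 h (0.00166) and 1.48 ± 0.22 at 96 h (5.67e-05). Cldn11, a tight junction protein of myelin, rose by 1.67 ± 0.47 at 96 h (0.00785; 0.372 with the covariate). Within cocultures Cldn11 had a 96 h minus 24 h difference of 1.75 ± 0.47 (0.0543; 0.0024 in the blocked fit). Tspan2, a tetraspanin, rose by 0.51 ± 0.13 at 96 h (0.00416), with 1 of 2 probe sets called.

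Those that fell at 96 h were Rhob, a small GTPase (-1.39 ± 0.36), Qdpr, dihydropteridine reductase (-1.27 ± 0.34), Gpr37, an orphan receptor (-1.27 ± 0.27), Sirt2, a deacetylase (-0.77 ± 0.22), and Fa2h, which makes hydroxylated myelin lipids (-0.48 ± 0.16). Gpr37 also fell at 24 h, by 1.13 ± 0.27 (adjusted p = 0.0125), and the other 4 passed at 24 h in the blocked fit but not in the reported one. With the covariate 0 of these 5 were called at 96 h, and Fa2h was 0.020 after cyclic loess.

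**Figure D3:**
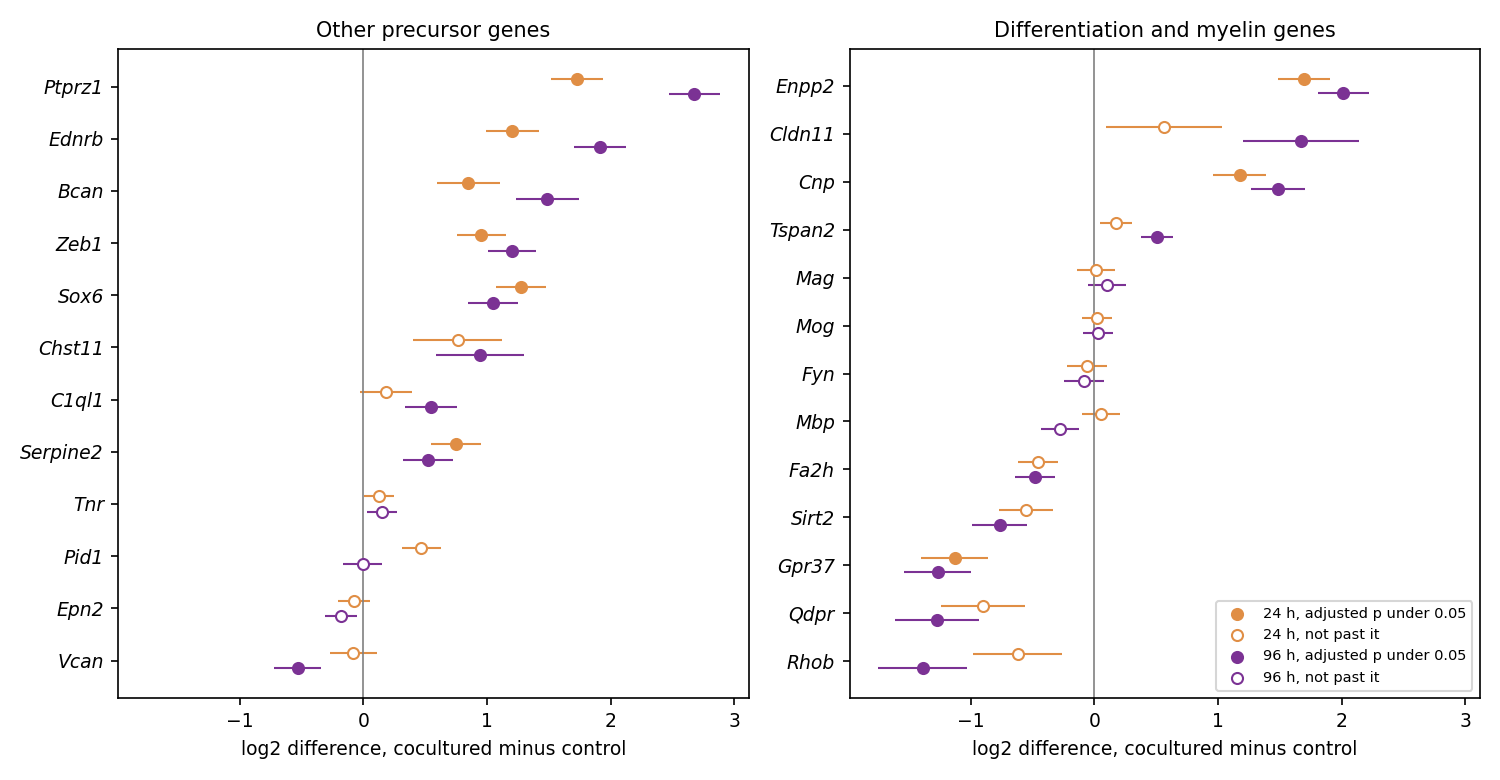
Log2 difference, cocultured minus control, ± SE at 24 h and 96 h for other precursor genes (left) and differentiation and myelin genes (right), filled where the adjusted p is under 0.05. Most precursor genes lie right of 0, while myelin genes lie on both sides, with Mbp, Mag and Mog near 0.

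Genes of PDGF signalling gave a mixed picture. Of 27 listed, 20 were named; the median difference was -0.25 at 24 h and -0.39 at 96 h, close to the all-gene medians of -0.18 and -0.34. At 24 h 1 rose and 3 fell (3 rose and 8 fell in the blocked fit), where 2.78% of all named genes rose and 7.58% fell. At 96 h 3 rose and 12 fell, where 7.48% rose and 41.1% fell. The 96 h counts were 3 higher and 14 lower in the blocked fit, 3 and 6 with equal array medians, and 2 and 4 with the covariate. Pdgfa, the ligand of the receptor Pdgfra, rose by 0.40 ± 0.13 at 96 h (adjusted p = 0.0179; 0.672 with the covariate), with 1 of its 3 probe sets called and probe sets that ran between 0.07 and 0.95. At 24 h its difference was 0.34 ± 0.13 (0.0949; blocked 0.00326).

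Gab1, a docking protein of activated receptors, rose by 1.06 ± 0.13 at 24 h (2.83e-05) and 1.37 ± 0.13 at 96 h (4.23e-07), and Plcg1, a phospholipase that binds the receptor, rose by 0.46 ± 0.12 at 96 h (0.00588). Cbl, the ubiquitin ligase that marks receptors for degradation, fell by 0.82 ± 0.20 on the log2 scale at 24 h (0.0128) and by 0.84 ± 0.20 at 96 h (0.003; 0.0868 with the covariate). Stat3 and Crkl, a transcription factor and an adaptor, fell at both times as well, by 0.35 to 0.64, and were not called with equal array medians.

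Among adaptors and kinases of the Ras pathway, Hras fell by 1.14 ± 0.32 at 96 h (0.00725), Mapk3 by 0.95 ± 0.23 (0.00313), Map2k1 by 0.86 ± 0.25 (0.00961), Nck1 by 0.72 ± 0.15 (0.0013), Grb2 by 0.57 ± 0.12 (0.00114) and Sos1 by 0.48 ± 0.15 (0.0157). The probe sets of Grb2 disagreed, between -1.54 and 0.34, and so did the 2 of Nck1, at -1.62 and 0.17 with 1 called. Rasa1, which switches Ras off, fell by 0.69 ± 0.27 (0.0385), which was 0.026 with the covariate. With that covariate Hras, Map2k1, Mapk3 and Sos1 were not called, and at 24 h Hras, Map2k1, Mapk3 and Grb2 passed in the blocked fit but not in the reported one. Over time 0 of the 20 were called in cocultures (1 rose and 7 fell in the blocked fit) and 1 fell in controls, Plcg1 (1 rose and 2 fell in the blocked fit).

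Among regulators of oligodendrocyte specification, 23 of 39 listed were named. At 24 h 6 rose and 0 fell (8 rose and 2 fell in the blocked fit), where 2.78% of all named genes rose and 7.58% fell. At 96 h 8 rose and 2 fell (10 and 4 in the blocked fit), where 7.48% rose and 41.1% fell. The list medians were 0.15 at 24 h and 0.14 at 96 h, against -0.18 and -0.34 over all named genes. Notch1, a receptor that holds progenitors undifferentiated, rose by 1.56 ± 0.20 at 24 h (5.29e-05) and 1.64 ± 0.20 at 96 h (1.05e-05); it also stands in the radial glia list. Hey1, a transcriptional repressor induced by Notch, rose by 1.28 ± 0.17 at 24 h (6.02e-05) and differed by 0.34 ± 0.17 at 96 h (0.0971; blocked 0.0458).

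Chd7, a chromatin remodeller, rose by 1.78 ± 0.40 (0.00875) and 2.33 ± 0.40 (0.000314) at those times. The receptors Fgfr2 and Fgfr3 rose by 1.13 ± 0.25 (0.00771) and 1.32 ± 0.41 (0.0455) at 24 h, and by 1.55 ± 0.25 (0.00017) and 1.71 ± 0.41 (0.00327) at 96 h; Fgfr3 was called at neither time with the covariate. Id1, an inhibitor of basic helix-loop-helix factors, rose by 0.67 ± 0.21 at 24 h (0.0429; 0.176 with the covariate) and 1.09 ± 0.21 at 96 h (0.000669).

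The bone morphogenetic proteins, which oppose the oligodendrocyte fate, split at 96 h: Bmp4 rose by 0.97 ± 0.25 (0.00436) and Bmp2 fell by 1.01 ± 0.21 (0.00131), and neither was called with the covariate. Smad1, which carries their signal, fell by 0.46 ± 0.17 (0.0344, and 0.257 with equal array medians). The 2 probe sets of Smad1 were at -0.72 and -0.19, with 1 called. Gli3, of the hedgehog pathway, rose by 0.65 ± 0.24 (0.0329) and was -0.057 with the covariate, and Lingo1, an inhibitor of oligodendrocyte differentiation, rose by 0.37 ± 0.09 (0.00319). At 24 h Bmp2, Gli3 and Lingo1 passed in the blocked fit but not in the reported one. Over time 1 of the 23 fell in cocultures and 1 in controls, Ezh2 in each (2 rose and 5 fell in cocultures and 1 rose and 3 fell in controls in the blocked fit).

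Of the markers of other cells that a culture of embryonic cortex could hold, some lists moved with the 3 genes and others did not. Of 8 radial glia and progenitor markers, 6 rose and 0 fell at 24 h, and 7 rose and 0 fell at 96 h (7 and 8 rose and 0 fell in the blocked fit). For this and the marker lists below, the shares over all named genes were 2.78% higher and 7.58% lower at 24 h and 7.48% higher and 41.1% lower at 96 h. The mean log2 ratio of that list ran between 0.38 and 1.21 in the 24 h cocultures and between -1.37 and -0.51 in the 24 h controls, and between 0.48 and 1.17 in the 96 h cocultures and between -1.36 and -1.02 in the 96 h controls. Sox2 rose by 2.60 ± 0.22 at 24 h (4.78e-07) and 3.13 ± 0.22 at 96 h (1.45e-08), and Fabp7 by 4.75 ± 0.58 (3.26e-05) and 5.34 ± 0.58 (2.13e-06). Slc1a3, which rose at both times, is a mean of 2 probe sets that disagreed. They were at -0.05 and 2.79 at 24 h and at -0.25 and 3.32 at 96 h, with 1 called at each time. Several genes of the precursor and regulator lists, among them Ptprz1, Bcan, Ednrb, Fgfr2, Fgfr3 and Notch1, are also made by radial glia or astrocytes.

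Of 7 astrocyte markers, 2 rose at 24 h (3 in the blocked fit) and 5 at 96 h (6 in the blocked fit), with 0 lower at either time. Their mean ran between -0.02 and 0.82 in the 24 h cocultures and between -0.59 and -0.01 in the 24 h controls, and between 0.64 and 1.30 in the 96 h cocultures and between -0.68 and -0.37 in the 96 h controls. Aqp4 and Aldoc were not called for coculture at either time in the reported fit. Aqp4 differed by -0.17 ± 0.22 at 24 h (adjusted p = 0.596) and -0.19 ± 0.22 at 96 h (0.469). Aldoc differed by -0.06 ± 0.16 at 24 h (0.820) and 0.34 ± 0.16 at 96 h (0.0858). Over time within cocultures 3 of the 7 rose (4 in the blocked fit), where 0.943% of all named genes did: Gfap, the astrocyte intermediate filament, by 1.63 ± 0.24 (adjusted p = 0.00171), Apoe, a lipid carrier, by 1.38 ± 0.35 (0.0394), and Aldoc, a glycolytic enzyme, by 0.66 ± 0.16 (0.036). In the same arrays Pdgfra, Olig1 and Bcas1 were not called, at 0.06 to 0.65. The difference between those time changes was not tested.

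Of 7 genes of cell division, 5 rose and 0 fell at 24 h (6 and 1 in the blocked fit), and 3 rose and 1 fell at 96 h (4 and 1). Their mean ran between 0.25 and 0.62 in the 24 h cocultures and between -0.36 and -0.19 in the 24 h controls, and between 0.09 and 0.28 in the 96 h cocultures and between -0.39 and -0.26 in the 96 h controls. Top2a, among those that rose at 24 h, is a mean of 2 probe sets that disagreed. They were at -0.38 and 1.08 at 24 h, with 1 called, and at -0.78 and 0.90 at 96 h, with both called. Of 10 neuron markers, 1 rose at 24 h and 0 fell (2 rose and 3 fell in the blocked fit), and 1 rose and 2 fell at 96 h (1 rose and 5 fell). Their mean ran between -0.65 and 0.18 in the 24 h cocultures and between -0.28 and 0.23 in the 24 h controls, and between -0.68 and 0.06 in the 96 h cocultures and between -0.17 and 0.22 in the 96 h controls, so these groups overlapped. The neuron markers called at 96 h in the reported fit were Rbfox3, Nefl and Nefm. Rbfox3, a neuronal nuclear protein, rose by 0.57 ± 0.09 (0.000118). The neurofilament genes fell on the log2 scale, Nefl by 2.00 ± 0.42 (0.00143) and Nefm by 0.69 ± 0.28 (0.0499). Tubb3 differed by -0.39 ± 0.33 at 24 h and -0.48 ± 0.33 at 96 h. It was called in the blocked fit only (adjusted p = 0.00132 at 24 h and 0.000106 at 96 h).

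Fewer markers of other types were measured. Of 5 interneuron markers 1 rose at 24 h and 0 fell (2 rose in the blocked fit), and 1 rose and 2 fell at 96 h (2 and 2). Of 3 fibroblast markers 1 rose at 24 h, Fn1, and at 96 h 1 rose and 1 fell; Col1a1, which helps define the type, differed by 0.15 and 0.18 and was not called. Of 2 pericyte and endothelium markers 0 were called at 24 h and 1 rose at 96 h, and of 4 Schwann cell markers 0 were called at 24 h and 1 rose at 96 h. In the blocked fit 1 fibroblast marker fell at 24 h, 1 pericyte and endothelium marker rose at 24 h and 1 fell at 96 h, and 1 Schwann cell marker fell at 96 h. The microglia list had 0 of 10 markers among the named genes and was not analysed here. The part of any of these cell types in the values of Pdgfra, Olig1 and Bcas1 was not tested.

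**Figure D4:**
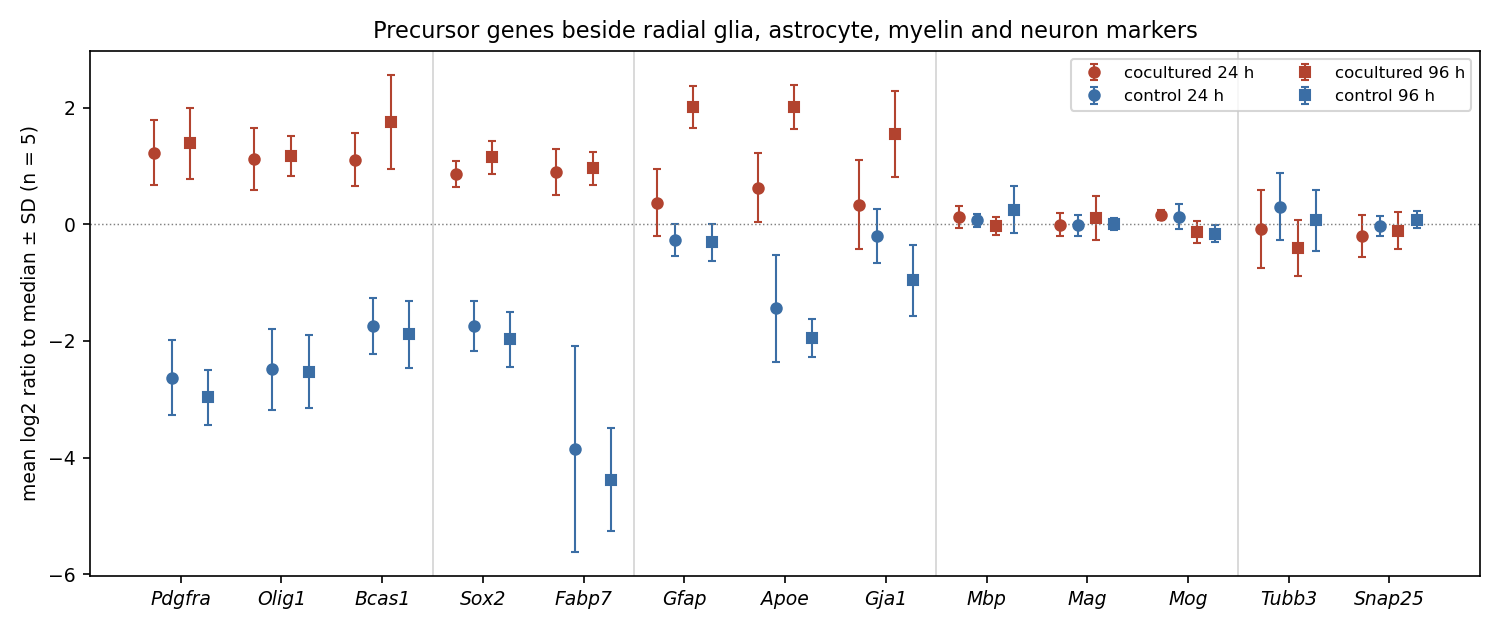
Mean log2 ratio to the median ± SD (n = 5) in the 4 groups for Pdgfra, Olig1 and Bcas1 and for markers of radial glia (Sox2, Fabp7), astrocytes (Gfap, Apoe, Gja1), myelin (Mbp, Mag, Mog) and neurons (Tubb3, Snap25). Pdgfra, Olig1, Bcas1 and the radial glia genes drawn are high in both cocultured groups and low in both control groups, and Gfap is highest in the 96 h cocultures. Of the astrocyte list, Aqp4 is not drawn and was not called for coculture. The 5 myelin and neuron genes drawn were not called for coculture in the reported fit, while other genes of those lists, such as Cnp and Nefl, were. In the blocked fit Tubb3 was called lower at both times, and Mbp, Mag, Mog and Snap25 were not called.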

How the data were processed

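RNA of 20 rat cultures was measured on Affymetrix arrays. The authors deposited 1 linear ratio per probe set and array. Per the file headers, these are RMA values of all 20 arrays divided by the probe set's median; 31069 of 31099 deposited probe sets had a median of 1 within 0.001. The submitters' processing notes name MAS5 beside RMA, and no version of either tool is given there. The deposited annotated table lists 17243 probe sets called present in 10 of 20 arrays, per the file headers, and supplied gene names, 11147 of them brought up to date by Entrez ID. Absolute intensity and depth are not known from ratios, and the number of arrays limits precision.

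Ratios were log2-transformed, 57 control probe sets were left out, and 4 group means were fitted with limma 3.58.1 in R 4.3.3. Benjamini-Hochberg adjustment covered 31042 probe sets, or 8381 genes when the named probe sets of a gene were averaged, and a call is an adjusted p under 0.05. The fit was tested on simulated data. The replicate numbers pair the arrays: deviations from group means correlated for all 30 same-number pairs (r between 0.243 and 0.855, median 0.524, against -0.230 for other pairs). Calls of a fit with that number as a block are given beside the list counts where they differ. The shares of all named genes in the text are those of the reported fit. The blocked fit called more probe sets in every contrast. The 3 genes and all lists were chosen with earlier results of these data known. Of each list, the text names up to 8 of the genes that rose most and 8 of those that fell most past a coculture test, and the first 4 measured. For each of Pdgfra, Olig1 and Bcas1 the text names the 5 genes of highest r. Marker genes, list genes named without a call and single time changes were chosen after their values were seen. The values of 1 precursor and 1 myelin gene are not reported here; the list counts include them. Alternatives were a block, the mean of the hybridisation controls as covariate, equal array medians, cyclic loess, fits of only the groups compared, only the authors' expressed list, the first listed probe set of a gene, each array left out, and replicate number 5 left out of every group, the last added after seeing the data.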

Additional observations from a re-analysis of the deposited data

Results flagged for a closer look

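In 2 cases a value stood far from the other 4 arrays of its group, judged by the gap to the nearest array over the group's whole range on the log2 scale, with 0.71 as the limit for 5 arrays. Pdgfra had a ratio of 4.53 in replicate 5 of the 24 h cocultures (gap over range 0.713), and Olig1 had 4.13 in the same array (0.785). Bcas1 in that array, at 3.71, had 0.692 and was under the limit. Of 12 combinations of gene and group examined, 2 passed, where chance alone flags about 1 in 20 independent ones. These 2 lie in the same array and the genes move closely together, so they are not independent. The same array had the highest hybridisation control value of its group, 1.36. Without replicate number 5 in any group, an alternative chosen after seeing the data, the coculture differences at 24 h were 3.74 for Pdgfra, 3.42 for Olig1 and 2.77 for Bcas1, and at 96 h 4.27, 3.60 and 3.51.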

How the results depend on the processing

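The coculture differences of Pdgfra, Olig1 and Bcas1 were positive under every alternative run, with each array left out in turn between 2.65 and 4.51. After cyclic loess they were 4.49, 4.22 and 3.19 at 24 h and 6.08, 5.31 and 4.35 at 96 h. No time change of the 3 genes was called under any alternative. Small ones changed sign: Pdgfra in cocultures (-0.050 with the covariate; -0.039 to 0.40 with an array left out), Olig1 in cocultures (-0.025 with the covariate; -0.054 to 0.29) and in controls (0.041 without replicate number 5; -0.26 to 0.20), and Bcas1 in controls (-0.29 to 0.10). Of 62 list gene calls, 38 were kept with the covariate, 20 were lost and 4 changed sign (Chst11 -0.16, Gli3 -0.057, Rasa1 0.026, Vcan 0.036, all at 96 h); loess lost 9 and turned Fa2h to 0.020, equal medians lost 11, fits of only the groups compared lost 9, and the block lost 0.

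Probe sets called for coculture at 24 h numbered 1026, against 8679 in the replicate block fit, 1644 with the covariate, 637 with only the groups compared and 4746 without replicate number 5; leaving out 1 array gave 508 (control 24 h replicate 3) to 2307 (control 24 h replicate 5). At 96 h 9937 were called, against 19239, 3091 and 15283 (block, covariate, without number 5) and 5482 (control 96 h replicate 2) to 13597 (cocultured 24 h replicate 5) with 1 array left out. For time in controls 45 were called, against 777, 455, 80 after loess, 84 with only the groups compared and 390 without number 5, and 6 (control 96 h replicate 2) to 149 (control 96 h replicate 5). For time in cocultures 310 were called, against 4418, 1851, 1047, 20 and 2136, and 139 (cocultured 24 h replicate 4) to 1423 (cocultured 24 h replicate 5). The cause was not tested.

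List calls at 24 h ran, with 1 array left out, between 4 (control replicate 1 or 3) and 8 for precursor genes (7 in the reported fit), 3 and 5 (control replicate 5) for myelin genes (3 in the reported fit; 7 with the block, 6 without number 5), 2 (control replicate 3 or 4) and 7 (control replicate 5) for PDGF genes (4 in the reported fit; 11 and 9) and 4 and 8 for regulators (6 in the reported fit; 10 with the block). At 96 h they ran between 6 (control replicate 3 or cocultured replicate 5) and 10 (10 in the reported fit), 8 and 10 (9 in the reported fit; 3 with the covariate), 13 and 15 (15 in the reported fit; 6 with the covariate, 9 with equal medians), and 8 and 12 (10 in the reported fit). Of all named genes 233 rose and 635 fell at 24 h, against 555 and 649 with equal medians and 560 and 613 after loess; at 96 h 627 rose and 3443 fell, against 1754 and 2186, and 1947 and 1981. The authors' expressed list names the list genes, so it could not change their counts. Absolute levels, other probe sets of the 3 genes and cell counts are not known.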
